A study of Homo sapiens with 5 samples.

Results

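The stretch of chromosome 1 beyond 150 Mb covers most of the long arm of the largest human chromosome. Peaks of methylated DNA were described there in 5 cultures of K562, an established line from a chronic myeloid leukaemia. Every peak on chromosome 1 that started at or beyond 150 Mb (hg19) was taken, and peaks of different libraries that overlapped by 1 bp or more were merged. This gave 689 regions of 11260 in the whole series (6.12%), made from 1383 of 23350 peaks. The stretch was chosen by measured values, namely a low share of its regions found in the library MT2 and a dense window of peaks, so both are given as descriptions with no test. Member peaks were taken by position and not by width or score. The comparisons of width and score were still chosen with earlier results of these data known. MT2 recovery also went with both, as described below, so the tests of width and score are not independent of the choice.

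The assay was methylated DNA immunoprecipitation followed by sequencing, in which an antibody to 5-methylcytosine enriches methylated fragments and a peak marks a place where such fragments pile up. By the labels, 2 cultures had wild-type DNMT3A: WT bulk and WT transfected (wild-type bulk and wild-type transfected in the plots). The other 3, MT1, MT2 and MT4, had DNMT3A mutated by CRISPR/Cas9 editing and are called clones. The labels do not give the mutation each clone carries, and each culture stands for 1 library, so a clone's own history and its genotype cannot be told apart. All 5 were kept in IMDM with serum and antibiotics, and no treatment is named.

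DNMT3A is a de novo DNA methyltransferase: it adds methyl groups to cytosines, mostly at CpG sites, that carry none. DNMT1, the maintenance enzyme, copies existing marks after replication. Enrichment by antibody needs several methylated CpGs in a fragment, so dense and methylated CpG stretches form peaks more readily than sparse ones.

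The number of peaks in the stretch followed the length of each list. WT bulk had 353 peaks, WT transfected 263, MT1 161, MT2 56 and MT4 550, and no peak had the same ends in any pair of lists. The whole lists held between 1426 peaks (MT2) and 8399 (MT4), and the labels give about 40000000 reads for each sample. The mapped reads of each library were not analysed here, so the depth behind a peak is unknown. Where a list lacks a peak, the signal stayed under the limit of that list, and less methylation cannot be told apart from a less sensitive library. Scores are printed as deposited, and libraries are compared in strength by percentile, the rank of a score within its own list. Intervals given below are 95% Wilson intervals and cover counting error only. Where a count is 0, the share that 3 counts would give is printed as the limit instead. Neighbouring regions, and PCR copies of a fragment, are not independent, which these intervals leave out.

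As a share of its own list, the stretch took 5.68% of WT bulk peaks (5.13 to 6.29%), 5.88% of WT transfected (5.23 to 6.61%), 5.67% of MT1 (4.87 to 6.58%), 3.93% of MT2 (3.04 to 5.07%) and 6.55% of MT4 peaks (6.04 to 7.10%). MT2 was the lowest of the 5. On the same chromosome below 120 Mb the shares were 6.20%, 6.62%, 6.47%, 5.82% and 6.64% in the same order, with MT2 again lowest (4.72 to 7.16%). Over the 99.2 Mb from the limit to the last peak, density was 3.56 peaks per Mb in WT bulk, 2.65 in WT transfected, 1.62 in MT1, 0.564 in MT2 and 5.54 in clone MT4. In 4 of the 5 libraries this was above the density below 120 Mb (3.21, 2.47, 1.53 and 4.65). In MT2 it was below it (0.692).

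Recovery describes how completely a library held the regions of the stretch. For a given library it is a percentage: of the regions that 2 or more of the remaining 4 lists hold, how many this list holds too. MT2 recovered 16.2% of such regions beyond 150 Mb (53 of 327; 12.6 to 20.6%), 20.9% on chromosome 1 below 120 Mb (76 of 363; 17.1 to 25.4%) and 23.4% on the other chromosomes (1128 of 4819; 22.2 to 24.6%). Set beside whole chromosomes, 2 of 23 had a lower MT2 recovery than the stretch: chromosome 12 with 12.8% (9.04 to 17.9%) and chromosome 14 with 15.3% (9.16 to 24.4%). Chromosomes 19, 22, 9, 17, 11, 13 and 16 followed at 17.0% to 18.9%. Chromosome X and the whole of chromosome 1 had 20.3%. All of these lay inside the interval of the stretch. The highest was 31.3% on chromosome 5.

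At this support, the other libraries lay nearer than MT2 to their own values below 120 Mb. WT bulk recovered 80.4% beyond 150 Mb (193 of 240; 74.9 to 84.9%) and 82.9% below 120 Mb. WT transfected recovered 66.7% (188 of 282; 61.0 to 71.9%) and 67.2%, and MT1 recovered 41.9% (132 of 315; 36.6 to 47.4%) and 43.1%. MT4 recovered 88.4% (199 of 225; 83.6 to 92.0%) and 89.1%, both above its 82.8% on the other chromosomes. WT transfected had 62.9% on the other chromosomes. Of regions in at least 3 other lists, it recovered 90.2% beyond 150 Mb (84.0 to 94.2%) and 89.2% below 120 Mb. On the other chromosomes it recovered 80.4% of such regions (78.7 to 82.1%).

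**Figure D1:**
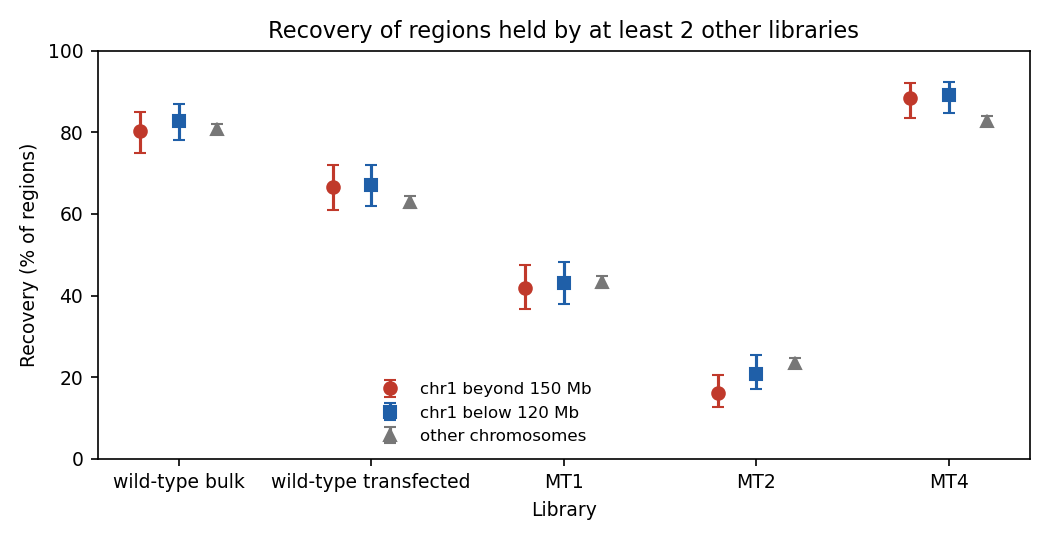
Recovery (y-axis, % of regions held by at least 2 other libraries) in each of the 5 libraries (x-axis) for chromosome 1 beyond 150 Mb, chromosome 1 below 120 Mb and the other chromosomes. Points are percentages and bars 95% Wilson intervals; in MT2 the red point is at 16.2% and the grey one at 23.4%.

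MT2 had the shortest list. With every list limited to its 1426 best-scoring peaks, MT2 recovered 41.8% beyond 150 Mb (38 of 91; 32.2 to 52.0%), 56.8% below 120 Mb (46.8 to 66.3%) and 57.1% on the other chromosomes (54.4 to 59.8%). In the same lists WT bulk recovered 71.8% beyond 150 Mb, WT transfected 78.0%, MT1 59.8% and MT4 68.7%, against 70.7%, 70.2%, 68.7% and 60.0% below 120 Mb and 66.0%, 62.0%, 59.9% and 58.2% on the other chromosomes. In these lists MT1 was also lower in the stretch than below 120 Mb, though level with its value on the other chromosomes. WT transfected was above its value on the other chromosomes, with intervals that lay apart (67.9 to 85.6% and 59.3 to 64.6%). The part that list length plays in the recovery of MT2 was not tested. Of those 1426 peaks per list, the stretch held 84, 97, 73, 56 and 86 in WT bulk, WT transfected, MT1, MT2 and MT4.

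MT2 recovery rose with the number of other libraries that held a region. It held 0 of 126 regions of exactly 2 others, which allows a share of up to 2.38%, then 14.1% of those of exactly 3 (13 of 92; 8.45 to 22.7%) and 36.7% of those of all 4 (40 of 109; 28.2 to 46.1%). Below 120 Mb the same steps were 3.05%, 16.0% and 43.7%, and on the other chromosomes 7.56%, 18.3% and 49.0%. At every step the stretch was lowest, but low MT2 recovery chose the stretch, so the steps are no test. Below 120 Mb the intervals were 1.19 to 7.59%, 10.3 to 24.2% and 35.3 to 52.4%, which overlapped those of the stretch. Against the other chromosomes the intervals overlapped at exactly 3 (16.3 to 20.4%). They lay apart at exactly 2 (6.46 to 8.83%) and at all 4 (46.5 to 51.6%).

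Recovery in MT2 also rose with the strength of the region elsewhere. Strength was taken as the percentile of a peak's score within its own list, averaged over the other lists that held the region. Below the percentile 25, MT2 held 0 of 34 regions of the stretch (a share of up to 8.82% is allowed). From 25 to 50 it held 2.65% (3 of 113), from 50 to 75 it held 14.4% (17 of 118; 9.19 to 21.9%), and above 75 it held 53.2% (33 of 62; 41.0 to 65.1%). On the other chromosomes the same bands gave 2.69%, 7.32%, 23% (21.1 to 25.1%) and 65.5% (62.3 to 68.5%). The make-up by strength was alike: 19.0% of the regions counted in the stretch and 18.8% elsewhere lay above 75, and 10.4% and 10.8% below 25. The stretch was below the other chromosomes in each of the 4 bands, with overlapping intervals in each. Since low MT2 recovery chose the stretch, the bands describe that choice again and test nothing. Against chromosome 1 below 120 Mb, the band from 50 to 75 was nearly level (14.8%).

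**Figure D2:**
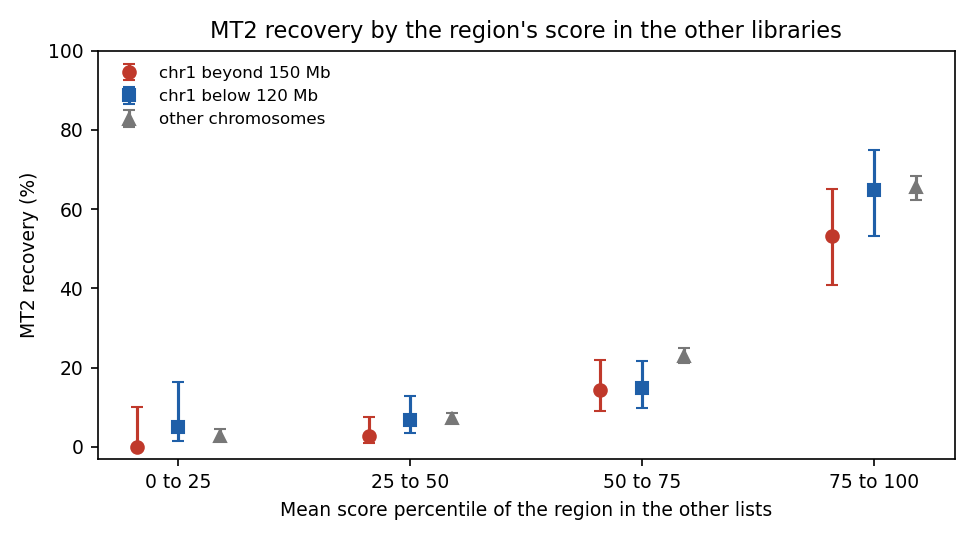
MT2 recovery (y-axis, %) in 4 bands of the region's mean score percentile in the other lists (x-axis), for chromosome 1 beyond 150 Mb, chromosome 1 below 120 Mb and the other chromosomes, with 95% Wilson intervals. In the stretch recovery goes from 0% in the lowest band to 53.2% in the highest, and each red point lies below the grey one.

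The 53 regions that MT2 held had a median percentile of 81.3 in the other lists (quartiles 63.9 to 90.3), against 48.0 (35.3 to 63.6) for the 274 it lacked. Their peaks in the other lists were also wider, with a median of 1396 bp against 1198 bp. Among the regions present in all 4 other libraries, the 40 held had a median percentile of 84.7 and the 69 lacking 65.9. The contrast was not particular to the stretch. Median percentiles of regions held and lacking were 80.4 and 48.4 below 120 Mb, and 76.5 and 47.5 on the other chromosomes. Their median widths were 1720 and 1312 bp below 120 Mb, and 1440 and 1183 bp on the other chromosomes. MT2 had 1 peak in the stretch that no other library shared, from 189193786 to 189195830, with a score of 104.

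Low recovery in MT2 lay mainly before 200 Mb. In bins of 10 Mb, MT2 recovery was 8.33% from 150 to 160 Mb (3 of 36), 12.8% from 160 to 170 Mb (5 of 39), 13.0% from 170 to 180 Mb, 12.0% from 180 to 190 Mb and 13.3% from 190 to 200 Mb. It was 21.4% from 200 to 210 Mb (9 of 42), 25.9% from 210 to 220 Mb, 19.6% from 220 to 230 Mb (11 of 56), 16.7% from 230 to 240 Mb and 14.7% from 240 Mb to the end. The bins up to 200 Mb were the lowest of the stretch, and that from 210 to 220 Mb was above the value of MT2 on the other chromosomes. Split at 200 Mb, a limit set after the values were seen, MT2 recovered 11.6% before it (16 of 138; 7.26 to 18.0%) and 19.6% beyond it (37 of 189; 14.5 to 25.8%). WT transfected and MT4 were also lower before 200 Mb (62.7% and 83.2%) than beyond it (69.5% and 92.3%), while WT bulk stood at 80.4% in both and MT1 at 41.2% and 42.4%.

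The bins on either side of the limit differed in MT2, with intervals that lay apart. In most other libraries recovery was also lower after the limit, but with overlapping intervals. In the 10 Mb before the limit, MT2 recovered 34.7% (17 of 49; 22.9 to 48.7%), against 8.33% (2.87 to 21.8%) in the 10 Mb after it. A bin as low lay below 120 Mb as well, from 110 to 120 Mb (5 of 48, 10.4%; 4.53 to 22.2%), so low values in MT2 were not limited to the stretch. Across the limit, WT transfected went from 73.2% (58.1 to 84.3%) to 58.1% (40.8 to 73.6%). MT1 went from 55.1% (41.3 to 68.1%) to 33.3% (19.8 to 50.4%), and MT4 from 94.6% (82.3 to 98.5%) to 77.3% (56.6 to 89.9%). WT bulk was level (76.7% and 77.3%). The region just inside, from 150253823 to 150256277, had a peak in 4 libraries including MT2, with scores of 94.5 in WT transfected, 96.2 in MT1, 94.2 in MT2 and 172 in clone MT4. The next one, from 150443945 to 150445878, was held by WT bulk (131) and MT4 (122). The pair just outside, from 149870624 to 149872397 and from 149929124 to 149930229, were held by both wild-type cultures and MT4. MT2 held neither of these nor the second region inside.

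**Figure D3:**
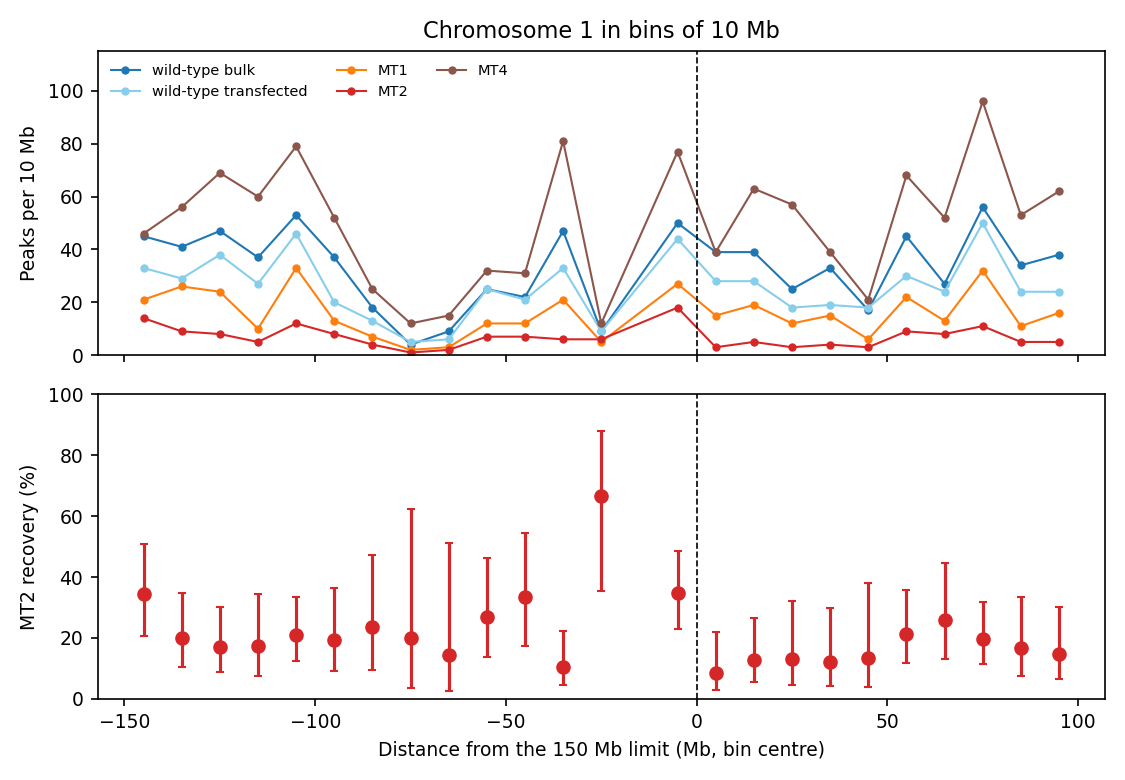
Chromosome 1 in bins of 10 Mb, placed by distance from the 150 Mb limit (x-axis, Mb; dashed line at the limit; no region lies from 130 to 140 Mb). Upper plot: peaks per bin in each of the 5 libraries. Lower plot: MT2 recovery (%) with 95% Wilson intervals; it is 34.7% in the bin before the limit and 8.33% in the bin after it.

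The regions of the stretch differed widely in how many libraries held them. A single library held 360 of the 689 (52.2%; 48.5 to 56.0%), 2 held 128, 3 held 79, 4 held 82, and all 5 held 40 (5.81%; 4.29 to 7.81%). Over all regions of the series, 7.42% were in all 5 libraries, a share inside the interval of the stretch. MT4 alone held 245 regions (35.6%; 32.1 to 39.2%), where it held 30.1% of all regions of the series alone and 31.0% of those below 120 Mb (27.7 to 34.5%). WT bulk alone held 71, WT transfected 28, MT1 15 and MT2 1. Without the list of MT4 the stretch held 444 regions. Strength rose with the number of libraries: the median percentile was 26.3 in regions of 1 library, 38.8 in those of 2, 48.5 in those of 3, 63.7 in those of 4 and 75.6 in those of all 5.

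No region of the stretch was shared by MT1, MT2 and MT4 while absent from both wild-type lists (0 of 689, which allows up to 0.435%); over the series such regions were 0.0710% of all. With MT2 left out, 9 regions were in both MT1 and MT4 and in neither wild-type culture. They were 1.31% of the stretch, where such regions were 1.56% below 120 Mb and 1.22% on the other chromosomes. Both wild-type cultures and no mutated line held 17 regions (2.47%; 1.55 to 3.92%), where the share over all regions was 2.74%. The count was thus near the share over the series. Below 120 Mb the share was lower, at 1.28% (9 of 704; 0.674 to 2.41%), with overlapping intervals. The strongest of the 17 ran from 189305195 to 189306360, with scores of 128 in WT bulk and 212 in WT transfected cells and a mean percentile of 71.9. The second ran from 197540969 to 197541882 (116 and 143), and the third from 185226408 to 185227080 (98.7 and 180). In each of these the percentile was higher in the transfected culture (91.8, 66.4 and 83.7) than in the bulk culture (52.0, 40.1 and 17.1). The next 7 by percentile started at 154259107, 226126512, 161662673, 196577373, 153650279, 222661238 and 228680100, with mean percentiles from 42.4 down to 33.9. Without MT4 the count of regions only in wild-type cultures was 76, without WT bulk 45, and without WT transfected 88, as fewer libraries then have to lack or hold a peak. The first count adds regions of both wild-type cultures and MT4 (8.56% of the stretch, 10.1% below 120 Mb, 7.76% on the other chromosomes). The second adds those of WT transfected alone (4.06%, 5.11% and 5.25% in the same order). The third adds those of WT bulk alone (10.3%, 9.38% and 12.4%).

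The libraries shared base pairs in the stretch in the same order as below 120 Mb at both ends of the range. The Jaccard index (shared covered bases over all covered bases of a pair of lists) was highest for the pair of wild-type cultures (0.455). Next were WT bulk with MT4 (0.404) and WT transfected with MT1 (0.379). It was lowest for MT2 with MT4 (0.117), and the other pairs of mutated lines had 0.243 (MT1 with MT2) and 0.258 (MT1 with MT4). Below 120 Mb the wild-type pair had 0.446 and MT2 with MT4 0.159. Short lists give low values, so these describe the lists as they are.

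The 40 regions in all 5 libraries included the strongest of the stretch. The first was from 228770839 to 228772140, in the dense window described below, with a mean percentile of 97.0. Its scores were 477 in WT bulk, 300 in WT transfected, 285 in MT1, 160 in MT2 and 499 in clone MT4. Its percentile was lowest in MT2 (89.6) and between 98.0 and 99.6 in the others, and the MT2 peak was 1302 bp wide where the others were 615 to 688 bp. The second, from 218495917 to 218498172, scored 257, 299, 194, 167 and 357 in the same order. The third, from 243217027 to 243219986, scored 258, 273, 206, 170 and 276. By percentile, the second was at 95.1, 98.2, 91.1, 91.1 and 98.8 and the third at 95.1, 97.1, 93.2, 91.7 and 96.2, so that MT2 was lowest in the third and level with MT1 in the second.

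A further 7 completed the 10 strongest common regions. They ran from 202407283 to 202409143, 154473812 to 154476195, 227463280 to 227464693, 161585907 to 161587324, 182921395 to 182922864, 226923652 to 226927037 and 207935485 to 207937178, with mean percentiles from 93.9 to 88.5. The region starting at 182921395 had percentiles within 5 points of each other, and there MT2 was highest (93.5), followed by MT4 (93.1), WT transfected (91.7), WT bulk (89.9) and MT1 (88.7). At the 40 common regions the ranks of the libraries were moderately alike, with Spearman's rank correlation across regions from 0.383 (WT transfected with MT1) to 0.592 (WT bulk with MT4) over the 10 pairs. These are descriptions, since the points share their libraries and sequence.

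The 69 regions held by every library but MT2 were 10.0% of the stretch, against 7.95% of all regions of the series and 10.1% of those below 120 Mb. The class includes regions near the top of the other lists. The strongest, from 179711759 to 179714078, scored 310 in WT bulk, 307 in WT transfected, 196 in MT1 and 341 in MT4, all above the percentile 91 of their lists. The second, from 236227108 to 236229349, scored 370, 192, 214 and 332, and the third, from 224051127 to 224053112, scored 224, 190, 222 and 290. In these 3 regions no score in the other lists fell under the percentile 86. The other 7 of the first 10 started at 166889432, 244217154, 169850814, 244624066, 151810070, 157164313 and 211589281, with mean percentiles from 89.7 to 83.4. The starts of the 10 were spread from 151810070 to 244624066 and formed no single gap.

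The densest 1 Mb window of the stretch was that from 228 to 229 Mb, with 26 regions, 3.77% of those in the stretch (2.59 to 5.47%). The median over the 100 windows was 6 regions, the next window, from 207 to 208 Mb, had 21, and 4 windows had none. Below 120 Mb no window had more than 21 regions. Over chromosomes 1 to 22 and X, 8 of 2181 windows with a region had more than 26, and the highest number was 40. The window held 11 peaks of WT bulk, 16 of WT transfected, 10 of MT1, 4 of MT2 and 22 of MT4. In WT transfected, MT1, MT2 and MT4 no other window of the stretch had more peaks, whereas in WT bulk 3 did.

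MT2 recovered 4 of 15 regions in this window (26.7%; 10.9 to 52.0%), beside its 16.2% over the whole stretch. Its 4 peaks were 7.14% of its peaks in the stretch (2.81 to 17.0%), against 3.12% (1.75 to 5.49%) in WT bulk, 6.08% (3.78 to 9.65%) in WT transfected, 6.21% (3.41 to 11.1%) in MT1 and 4.0% (2.66 to 5.98%) in MT4. Of the 26 regions, 11 were in a single library, 6 in 4 libraries and 3 in all 5. The shares in a single library (42.3%) and in all 5 (11.5%) compare with 52.6% and 5.58% in the rest of the stretch. The median percentile of the regions was 40.5, and 40.1 in the rest.

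As background, the long arm band 1q42 carries, in this part of the chromosome, the tandem array of 5S ribosomal RNA genes, which RNA polymerase III transcribes. In the RefSeq table for GRCh38.p14 the 17 RNA5S genes of chromosome 1 lie after the protein-coding genes TRIM17, H3-4, H2AC25, H2BC26 and RNF187. H3-4, H2AC25 and H2BC26 encode histones, and TRIM17 and RNF187 encode RING-type ubiquitin ligases. That table is in another build than the peaks, so no region was assigned to a gene. Copies of a tandem array are nearly the same in sequence, and how reads with several possible positions were treated is not given in the sources used here.

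In the window 9 regions were held by 4 or more libraries. From 228159320 to 228162207, scores were 144 in WT bulk, 94.0 in WT transfected, 105 in MT1 and 163 in MT4. From 228245912 to 228247668 they were 200, 100, 126 and 173, and from 228362066 to 228365173 they were 92.7, 97.1, 93.6 and 154. MT2 had no peak at any of these 3 regions.

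The other 6 lay between 228651122 and 228872331. The first of them, from 228651122 to 228652874, was in all 5 libraries, with scores of 184 in WT bulk, 190 in WT transfected, 135 in MT1, 105 in MT2 and 231 in clone MT4. The region from 228742545 to 228744396 was also in all 5 (303, 248, 137, 123 and 258). Percentiles at both regions were from 82.2 to 97.8 in the wild-type cultures and MT4 and from 40.0 to 69.1 in MT1 and MT2. Next came 3 narrow regions: from 228756455 to 228757000 (281 in WT bulk, 194 in WT transfected, 123 in MT1 and 193 in MT4), from 228757724 to 228758392 (154, 155, 132 and 189) and the strongest of the stretch, from 228770839, given above. The last, from 228870576 to 228872331, was in every library but MT1, with 210 in WT bulk, 190 in WT transfected, 104 in MT2 and 275 in clone MT4.

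The narrow regions stand out by width. Among the 122 regions of the stretch in at least 4 libraries, the median width of a region's peaks ran from 458 to 3132 bp with a midpoint of 1464 bp. It was under 700 bp in 4 of them, and 3 of the 4 lay in this window (458, 642 and 664 bp). The fourth ran from 234492285 to 234493070 (671 bp). The limit of 700 bp was chosen after the widths were seen.

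**Figure D4:**
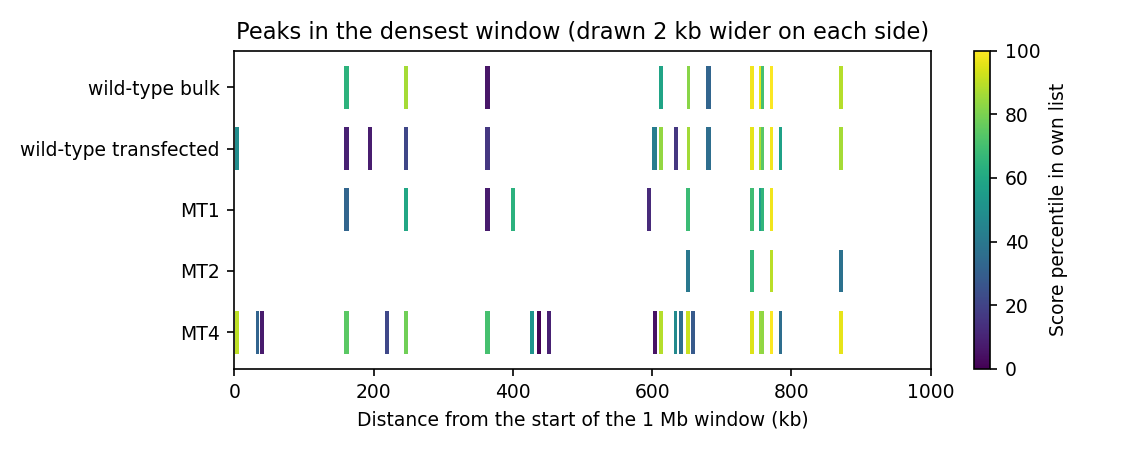
Peaks of the 5 libraries (rows) in the window from 228 to 229 Mb, by distance from the start of the window (x-axis, kb), coloured by the percentile of the score in the peak's own list. Each bar is drawn 2 kb wider on each side than the peak; MT2 has 4 peaks there and MT4 22, and the brightest bars lie in the last part of the window.

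Peaks of the stretch were narrower than those of the same chromosome below 120 Mb in every library. The median width was 1211 bp beyond 150 Mb and 1455 bp below 120 Mb in WT bulk, 1222 and 1374 bp in WT transfected, 1377 and 1498 bp for MT1, 1642 and 2025 bp for MT2, and 1018 and 1206 bp in clone MT4. The differences were -244, -152, -120, -383 and -188 bp, with a mean of -217 ± 103 bp (SD, n = 5). All 5 had the same sign, and the exact permutation test over libraries, two-sided, gave p = 0.0625, the smallest value that 5 libraries allow. The sign also held in all 5 libraries at regions common to every library, with 40 regions beyond 150 Mb and 55 below 120 Mb (-208 to -346 bp), a comparison added after the data were seen.

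The difference in median width is one against chromosome 1 below 120 Mb and not against the genome. Set against the other chromosomes, the median width differed by -41.0 bp in WT bulk, 48.0 bp in WT transfected, 57.0 bp in MT1, -132 bp in MT2 and -68.0 bp in clone MT4, with a mean of -27.3 bp (exact permutation p = 0.5). Wide peaks of 3 kb or more were 2.55% of WT bulk peaks beyond 150 Mb (1.35 to 4.77%) and 7.27% below 120 Mb (5.08 to 10.3%). They were 2.28% and 7.43% in WT transfected, 0 of 161 (up to 1.86% is allowed) and 7.61% for MT1, 1.79% and 12.0% for MT2, and 1.82% and 4.48% in MT4. On the other chromosomes the shares were 5.00%, 3.21%, 4.55%, 9.90% and 3.89% in WT bulk, WT transfected, MT1, MT2 and MT4. Wide peaks were thus rarer in the stretch than on the other chromosomes in every library. The intervals lay apart in MT1 (3.79 to 5.44% on the other chromosomes) and MT4 (0.991 to 3.31% and 3.47 to 4.36%) and overlapped in the rest. The bin from 0 to 10 Mb, at the end of the short arm, had the widest peaks of the chromosome, with a median of 1987 bp over all lists, against 1502 bp from 150 to 160 Mb, the widest bin of the stretch. Peaks below 120 Mb were not wide throughout. Bins from 60 to 100 Mb had medians of 947 to 1030 bp, inside the range of the bins of the stretch (884 to 1502 bp).

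The merged regions of the stretch ran from 373 to 5620 bp with a median of 1121 bp, and 16 were 3 kb or wider. The widest, from 152079912 to 152085531, had a peak of 5591 bp in MT4 (score 179) and peaks of 2514 and 2614 bp in WT bulk and WT transfected (97.0 and 97.2). The others of the 5 widest started at 249104167, 227917493, 214778753 and 156643616. Of these, the one starting at 214778753 was in all 5 libraries, with peak widths of 2485 bp in WT bulk, 3917 in WT transfected, 2239 in MT1, 2419 in MT2 and 3977 bp in clone MT4. The gap between neighbouring regions had a median of 63692 bp, 62 of 688 gaps were under 10 kb, and the largest, from 215765379 to 218337687, was 2572309 bp.

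Median score percentiles in the stretch were close to the middle of each list. The median was 51.6 in WT bulk, 54.3 in WT transfected, 43.8 in MT1, then 47.2 in MT2 and 47.8 in clone MT4, against values from 49.9 (WT bulk) to 55.9 (MT1) below 120 Mb. The difference was 1.74 and 4.31 points in the wild-type cultures and -12.1, -4.30 and -4.15 points in MT1, MT2 and MT4. Over all 5 libraries the mean was -2.90 ± 6.35 points (SD, n = 5; exact permutation p = 0.5). Peaks above the percentile 90 of their list made up 9.92%, 9.51%, 8.07%, 8.93% and 9.64% of the stretch in the same order of libraries, where the whole list has about 10%. The highest scores were 477, 307, 285, 179 and 499 in the stretch, against 2232, 2266, 2132, 1071 and 2877 below 120 Mb. On the other chromosomes the highest score was 3100 in every library. Each maximum is a single peak, and the contrast was not tested.

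The groups did not overlap in this difference: it averaged 3.03 ± 1.82 points (SD, n = 2) in wild-type and -6.84 ± 4.54 points (SD, n = 3) in mutated libraries. The difference between the groups was -9.87 points, and the exact permutation test, two-sided over the 10 choices of 2 libraries, gave p = 0.2, the smallest it can give. It was -6.71 points against the other chromosomes, with the same p in that exact permutation test. The direction turned to 2.07 points with lists of equal length and to 0.271 points with peaks at or above the median score. For width, the difference between segments averaged -198 ± 65.4 bp (SD, n = 2) in wild-type and -230 ± 136 bp (SD, n = 3) in mutated libraries, with overlapping groups (exact permutation p = 1).

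**Figure D5:**
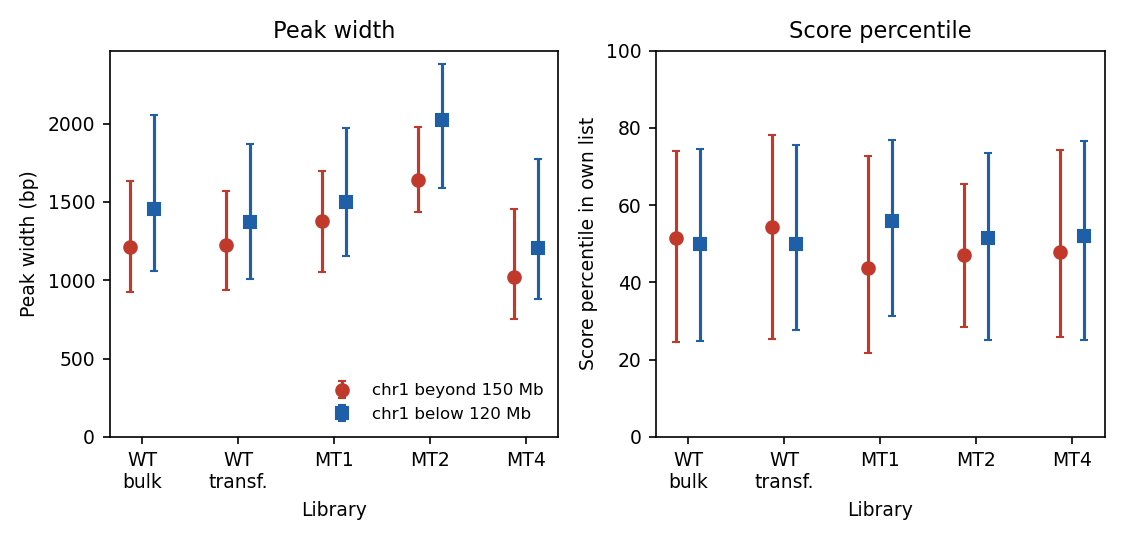
Median width (left, bp) and median score percentile within the own list (right) of peaks beyond 150 Mb and below 120 Mb on chromosome 1, for each library; bars run from the lower to the upper quartile. Median widths beyond 150 Mb lie below their counterparts in all 5 libraries, and percentiles lie above them in the 2 wild-type cultures and below them in MT1, MT2 and MT4.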

How the data were processed

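MeDIP-seq peak lists of 5 K562 libraries (2 wild type, 3 with mutated DNMT3A) were used. The submitters' processing notes name Bowtie 1.1.1, edgeR and hg19 without a role for each. The authors called peaks for each library alone, as the deposited files hold 1 list per library. Peaks carry names starting with MACS, per the deposited files. The authors' deposited score is 90.0 or more for every peak. Caller version, threshold and any input are not given in the sources used. Scores are printed as deposited. Lists were compared through a peak's percentile within its own list, apart from 1 alternative with a single score limit for all lists.

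Peaks overlapping by 1 bp were merged, and classes, recovery, widths and percentiles were computed with Python 3.11.15, pandas 2.3.3, numpy 2.4.6 and scipy 1.17.1, and were tested on simulated lists. Positions are in hg19 and 1-based. Libraries were the replicates: segments were compared by an exact permutation test over sign changes of the 5 differences, and genotypes by one over the 10 choices of 2 libraries. The p-values measure the spread between these libraries only.

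The stretch, the members and the tests were chosen with earlier results of these data known. Named regions were the 10 strongest in all 5 libraries, in all but MT2, and in wild-type cultures only, those of the densest window in at least 4 libraries, those beside the limit and the 5 widest. Alternatives were a score limit at 121.64, equal lists of 1426 peaks, other overlaps, a limit at 160 Mb, other comparison segments and support, and leaving out each library. Region sequences and genes by position were not analysed here, for want of a reference in hg19.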

Additional observations from a re-analysis of the deposited data

Results flagged for a closer look

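One result was set apart because the wild-type and mutated libraries moved in opposite directions. The median score percentile beyond 150 Mb, minus that on chromosome 1 below 120 Mb, was above 0 in both wild-type cultures (mean 3.03 points) and below 0 in all 3 mutated lines (mean -6.84 points), a difference of -9.87 points. The exact permutation p was 0.2, the smallest that 2 against 3 libraries allow. Percentiles are ranks within lists of unequal length. With lists of equal length the libraries no longer separated: the values were -4.44 in WT bulk, 3.93 in WT transfected, 2.03 in MT1, -4.30 in MT2 and 7.71 in clone MT4. At regions held by all 5 libraries they were 2.20, -3.18, -4.29, -5.40 and 3.01 points.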

How the results depend on the processing

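No exact test here can pass 0.05, as 5 libraries allow no p below 0.0625 and genotypes none below 0.2. No paired analysis was possible because no label ties a mutated clone to either wild-type culture. The width difference between segments ran from -290 to -176 bp in 10 of 11 alternatives. Against other chromosomes it was -27.3 bp, with WT transfected and MT1 above 0. The score percentile difference turned to 0.0277 at the stricter score limit and 0.989 with equal lists, and its genotype difference to 0.271 and 2.07; the other 9 alternatives kept each direction. The genotype difference in width turned from -32.8 to 104 bp at the stricter limit, 40.0 bp with equal lists and 56.7 bp at regions in all 5 libraries, and ran from -87.8 (without MT1) to 43.5 bp (without MT2) when a library was left out, with 13.5 bp without WT transfected. The regions numbered 346 at the stricter limit, 160 with equal lists, and 444 (without MT4) to 688 (without MT2) with a library left out. Recovery in MT2 was 9.36% at the stricter limit, 41.8% with equal lists, and 7.99%, 26.4% and 36.7% for regions in at least 1, 3 and 4 others; without a library it ran from 16.9% to 23.8%. The dense window held 6.25% of regions with equal lists. Wild-type-only regions were 6 with equal lists and 17 to 88 without a library; mutant-only regions were 0 to 9, with 9 without MT2. Stricter lists lose peaks by construction, and fewer libraries are easier to satisfy; the cause of the other changes was not tested. A fixed score limit and unknown read depth bound every absence.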
